A study of Bos taurus with 3 samples.

Results

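miR-199 and miR-214 are microRNAs (miRNAs) best known from mesenchymal cells, that is fibroblasts, smooth muscle, pericytes and developing bone. They were followed here in small RNA libraries of large dense-core vesicles, the organelles in which chromaffin cells of the bovine adrenal medulla store catecholamines and peptides. All annotated mature names of miR-199a, miR-199b, miR-199c and miR-214 were taken on every hairpin that the count table lists for them. This gave 5 mature names on 5 hairpins, in 11 rows of a table with 793 mature names and 919 rows. miR-199a-3p and miR-199c carried identical counts in their leading rows in all 3 libraries, so these 2 names were counted once, and 4 miRNAs with counts of their own remained. The comparison set 1 library labelled as a biological replicate against 2 libraries labelled as technical replicates. All came from the adrenal medulla of slaughtered cows, and the labels give no treatment. The labels do not say how many animals stood behind a preparation or which step was repeated in the technical pair.

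A miRNA hairpin is cut by Dicer into a duplex, of which either arm, the 5p or the 3p strand, can be loaded into an Argonaute protein, and the other arm is usually lost. The arm that is kept pairs through its seed, the bases near its 5′ end, with messenger RNAs and lowers their output. The miR-199 hairpins are known for giving functional products from both arms, and miR-214 is transcribed together with a miR-199a hairpin from a long non-coding RNA inside the gene for dynamin 3. That transcript is known as a target of TWIST1, a transcription factor of mesenchymal cells. In the RefSeq gene table of the assembly ARS-UCD2.0, MIR214 and MIR199A-1 both lay within DNM3 and within the same long non-coding RNA gene, LOC132342463. MIR199A-2 lay within DNM2 and MIR199B within DNM1, so these 3 miR-199 hairpins and MIR214 sit in genes of the dynamin family, which encode GTPases that pinch vesicles off membranes. MIR199C lay within NUP88, which encodes a nuclear pore protein. The bovine counts were made on another build, so only the names and neighbours of these genes are given.

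The mature counts summed to 6708654 in the biological replicate and to 5546771 and 6251664 in technical replicates 1 and 2, where a miRNA listed on several hairpins entered through its highest row. CPM, the counts scaled to a common library total, puts the libraries on the same footing. The upper limit that a count of 0 allows was taken as 3 counts, which is about the 1-sided 95% limit. It was 0.447 CPM in the biological replicate and 0.541 and 0.480 CPM in technical replicates 1 and 2. The preparations were rich in miR-375 and miR-7, both known from endocrine cells. Together these miRNAs summed to 473000 CPM in the biological replicate and to 440620 and 428375 CPM in technical replicates 1 and 2. They were chosen with earlier results of these data known, and do not tell chromaffin cells from other endocrine cells. No whole-cell library was analysed here, so a level says nothing about enrichment in vesicles over the cell. Nor can fewer cells of a type and less RNA per cell be told apart in such bulk samples.

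The miR-199 and miR-214 group was a minor part of the mature miRNA counts of the vesicles, and nearly all of it was the 3p arm of miR-199. The 4 miRNAs took 0.204% of all mature counts in the biological replicate (exact Clopper-Pearson 95% interval 0.201 to 0.208%). In the technical replicates they took 0.311% (0.307 to 0.316%) and 0.321% (0.316 to 0.325%). The share was thus lower in the biological replicate than in either technical library, and the distance between the technical libraries was small against that gap. Over the 2 preparations, with the technical pair averaged, the share was 0.260% ± 0.0791 (SD, n = 2). miR-199a-3p alone made up 97.2% of the group's counts in the biological replicate, against 94.87% and 94.99% in technical replicates 1 and 2. Intervals cover counting error only. The labels mention no molecular identifiers, so copies of the same molecule could not be told from separate reads, and the intervals may be too narrow.

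bta-miR-199a-3p (MIMAT0003746), which in human cells is known to repress the kinase mTOR and the receptor MET, had 1984 CPM in the biological library, against 2952 and 3048 CPM in technical replicates 1 and 2. It stood at rank 43 of the 793 names in the biological replicate and at ranks 35 and 34 in technical replicates 1 and 2, among the more abundant miRNAs of the vesicles. The 2 technical values were close, 0.05 apart on the log2 scale, and the biological value lay below both. bta-miR-199a-5p (MIMAT0003544), the opposite arm, is known to target HIF1A in heart muscle and caveolin 1 in lung fibroblasts. It had 28.9 CPM (194 counts) in the biological replicate, against 85.1 and 81.7 CPM in technical replicates 1 and 2 (472 and 511 counts). bta-miR-199b (MIMAT0003821), the 5p arm of the hairpin in DNM1, had 10.3 CPM in the biological replicate (69 counts), against 26.0 and 31.0 CPM in technical replicates 1 and 2 (144 and 194 counts). Among these miRNAs it had the widest gap between the technical libraries, 0.26 on the log2 scale, which was still far smaller than its gap to the biological library. bta-miR-214 (MIMAT0003825), known for repressing EZH2, had 18.5 CPM in the biological replicate (124 counts), against 48.5 and 47.8 CPM in technical replicates 1 and 2 (269 and 299 counts). In each of these miRNAs the biological value lay below both technical values.

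**Figure D1:**
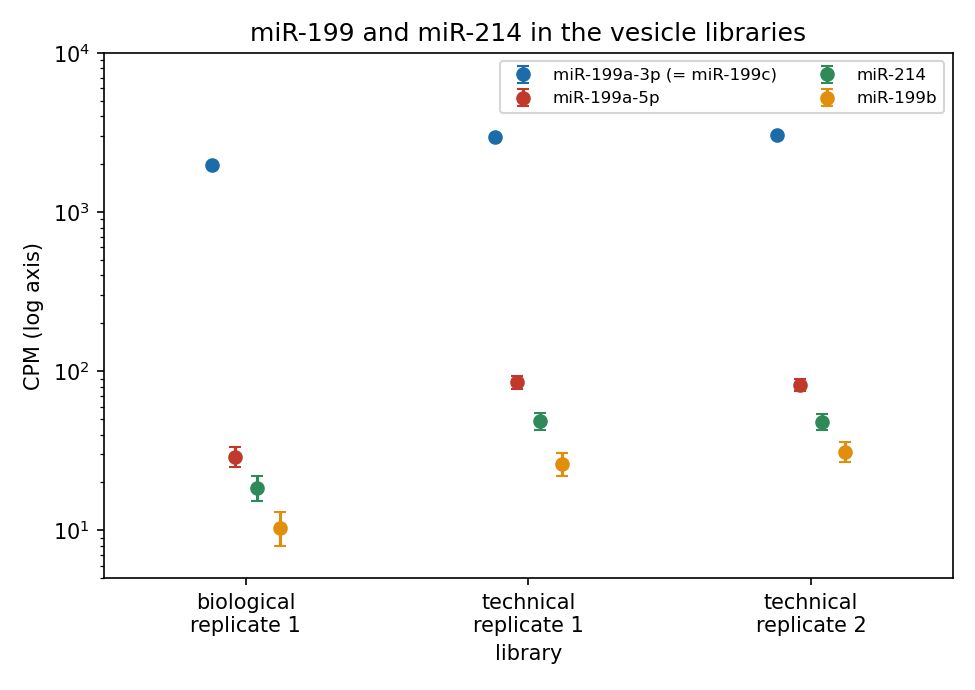
CPM (log axis) of the 4 miRNAs in the biological replicate and in technical replicates 1 and 2, with points at the measured level and bars for the exact Poisson 95% interval of the count. miR-199a-3p lies between 1984 and 3048 CPM, well above the other miRNAs, and every miRNA is lower in the biological replicate than in both technical replicates.

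The order of levels in CPM was the same in each library, with miR-199a-3p far above miR-199a-5p, then miR-214, then miR-199b. These are levels of mature miRNAs of nearly equal length, so no correction for length was needed, but ligation-based libraries are known to capture different miRNAs unequally. Within each library the exact Poisson 95% intervals of neighbours in that order did not overlap. In the biological replicate they ran from 25.0 to 33.3 CPM for miR-199a-5p, from 15.4 to 22.0 CPM for miR-214 and from 8.0 to 13.0 CPM for miR-199b. miR-199a-5p averaged 56.2 ± 38.5 CPM, miR-214 33.3 ± 21.0 CPM and miR-199b 19.4 ± 12.9 CPM (SD, n = 2 each). These ranges overlapped, because all 3 were lower in the biological replicate, while the order held within every library. miR-199a-3p averaged 2492 ± 718 CPM (SD, n = 2) and stood apart from them.

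The comparison asks how far the profile of a preparation is found again in another. All 4 miRNAs were lower in the biological replicate, the 5p arms and miR-214 by more than 2-fold and the 3p arm by less. miR-199a-5p fell by 1.35 ± 0.16 on the log2 scale (SE; edgeR's quasi-likelihood test, Benjamini-Hochberg adjusted p = 3.3e-14). miR-199b fell by 1.29 ± 0.22 (adjusted p = 9.1e-08) and miR-214 fell by 1.20 ± 0.18 (adjusted p = 2.2e-09) in the same edgeR test. miR-199a-3p fell by 0.42 ± 0.10 (adjusted p = 1.7e-04, edgeR). Put as folds, the scaled levels were lower by a factor of 2.54 for miR-199a-5p, 2.45 for miR-199b, 2.30 for miR-214 and 1.33 for miR-199a-3p. Among the 367 miRNAs tested, those with at least 10 counts in a library, the fold change of miR-199a-5p ranked 10 from the lowest, that of miR-199b 12, that of miR-214 15 and that of miR-199a-3p 80.

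All 4 miRNAs reached the minimum of 10 counts in every library, and calls were common in this comparison. An adjusted p below 0.05 was found for 37.9% of the 367 miRNAs in either direction, and 20.2% passed and were lower in the biological replicate, against 4 of the 4 miRNAs here. Among the 105 miRNAs with a mean of 10 to 100 CPM, the range of the 3 scarcer miRNAs of the group, 29.5% were lower, and among the 62 with at least 1000 CPM, the range of miR-199a-3p, 16.1% were. A drop of more than 1 log2 unit that also passed was found for 6.27% of the 367, among them 3 of the 4. The median log2 fold change of the 4 was -1.25, against 0.01 over all 367. The scaling matters to these sizes. Under TMM, edgeR's scaling factor, values of the biological library stood 0.18 log2 units above those under library totals. Calls split into 65 higher and 74 lower with TMM, and into 24 higher and 86 lower with library totals. With library totals the log2 fold change was -1.53 for miR-199a-5p, -1.47 for miR-199b, -1.38 for miR-214 and -0.60 for miR-199a-3p, and all 4 passed (adjusted p from 0.0031 to 0.0075, edgeR). The spread came from the technical pair alone, with 1 residual degree of freedom per miRNA, and edgeR pooled it fully over the 367 miRNAs (infinite prior degrees of freedom), on which the very small adjusted p-values rest. The p-values speak of these libraries only, not of animals, and are used to sort miRNAs into those that passed and those that did not.

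**Figure D2:**
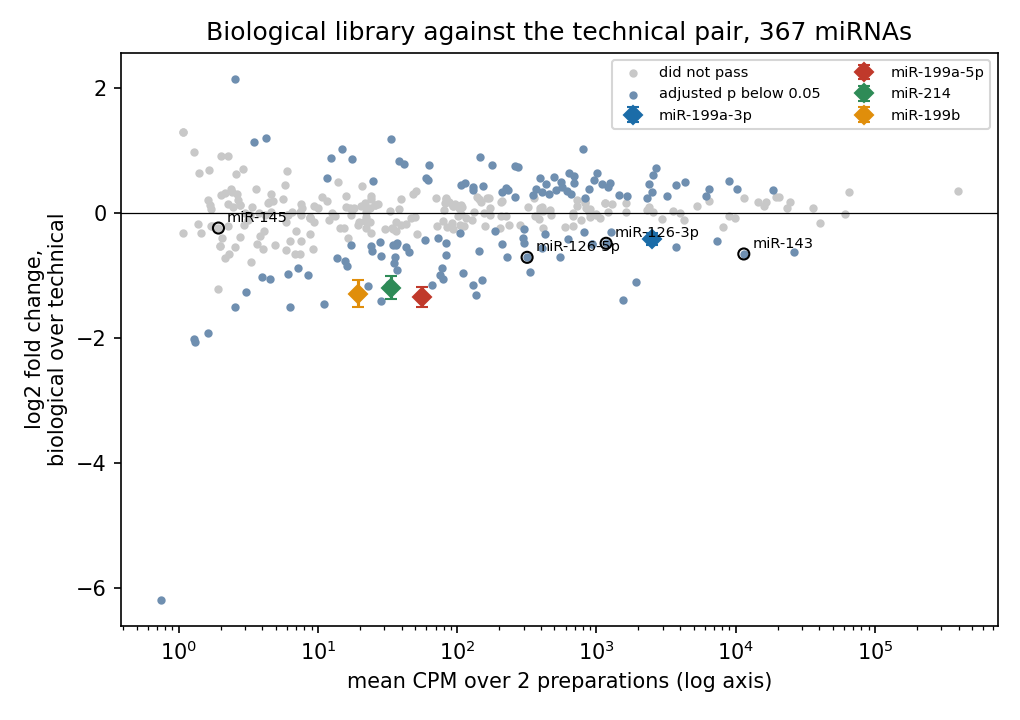
Log2 fold change of the biological replicate over the technical pair (edgeR, TMM scaling) against mean CPM (log axis) for the 367 tested miRNAs, with the 4 miRNAs of the group as diamonds with SE bars and 4 vessel wall miRNAs circled. The 3 scarcer miRNAs of the group lie below -1 and miR-199a-3p lies at -0.42.

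The arms of miR-199 did not move by the same amount. This measure compares reads within a library, so it does not depend on the scaling between libraries. The 5p arms, miR-199a-5p and miR-199b together, made up 1.94% of the miR-199 reads in the biological replicate (263 of 13572, exact 95% interval 1.71 to 2.18%). They made up 3.63% in technical replicate 1 (616 of 16991, 3.35 to 3.92%) and 3.57% in technical replicate 2 (705 of 19757, 3.31 to 3.84%). The technical libraries overlapped in their intervals, and the interval of the biological library lay below both. The share is given as a description, with no test.

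The proportions among the miRNAs that fell by more than 2-fold had overlapping intervals in the 3 libraries. miR-214 made up 39.0% of the sum of miR-214 and miR-199a-5p reads in the biological replicate (exact 95% interval 33.6 to 44.6%), against 36.3% (32.8 to 39.9%) and 36.9% (33.6 to 40.3%) in technical replicates 1 and 2. miR-199a-5p made up 73.8% of the 5p reads of miR-199 in the biological replicate (68.0 to 79.0%), against 76.6% (73.1 to 79.9%) and 72.5% (69.0 to 75.8%) in technical replicates 1 and 2. At this depth a difference in these proportions between the preparations was not detectable.

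**Figure D3:**
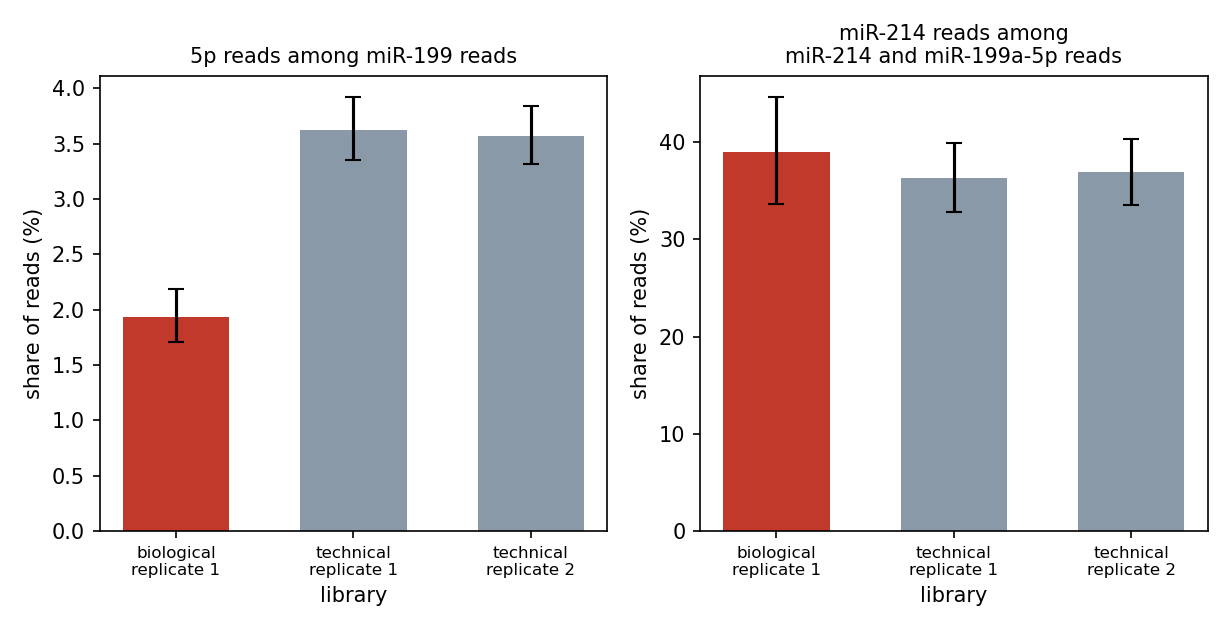
Share of 5p reads among miR-199 reads (left) and share of miR-214 among miR-214 and miR-199a-5p reads (right), in percent, for the biological replicate and technical replicates 1 and 2, with bars at the measured share and whiskers for the exact Clopper-Pearson 95% interval. The 5p share is 1.94% in the biological replicate against 3.63% and 3.57% in the technical replicates, while the whiskers of the miR-214 share overlap in all 3 libraries.

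A shift between arms was seen for other hairpins too. In 18 pairs of arms, both the name ending in 5p and the one ending in 3p had at least 100 counts in every library. The log2 ratio of 5p to 3p counts for miR-199a was -6.10 in the biological replicate, against -5.12 and -5.22 in technical replicates 1 and 2, a shift of -0.93. Ranked by size, it stood at 3 of the 18 shifts. miR-2483 shifted by -1.24, also toward its 3p arm, and miR-99a by 1.05 toward its 5p arm. The median size over the other 17 pairs was 0.36, and 7 of the 18 shifted toward 3p. Between the technical replicates the ratio differed by 0.13 in the median pair and by at most 0.47, in miR-6119, so the shift of miR-199a exceeded every technical difference. For miR-126, the endothelial miRNA, the shift was -0.22, close to the technical difference of -0.21.

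**Figure D4:**
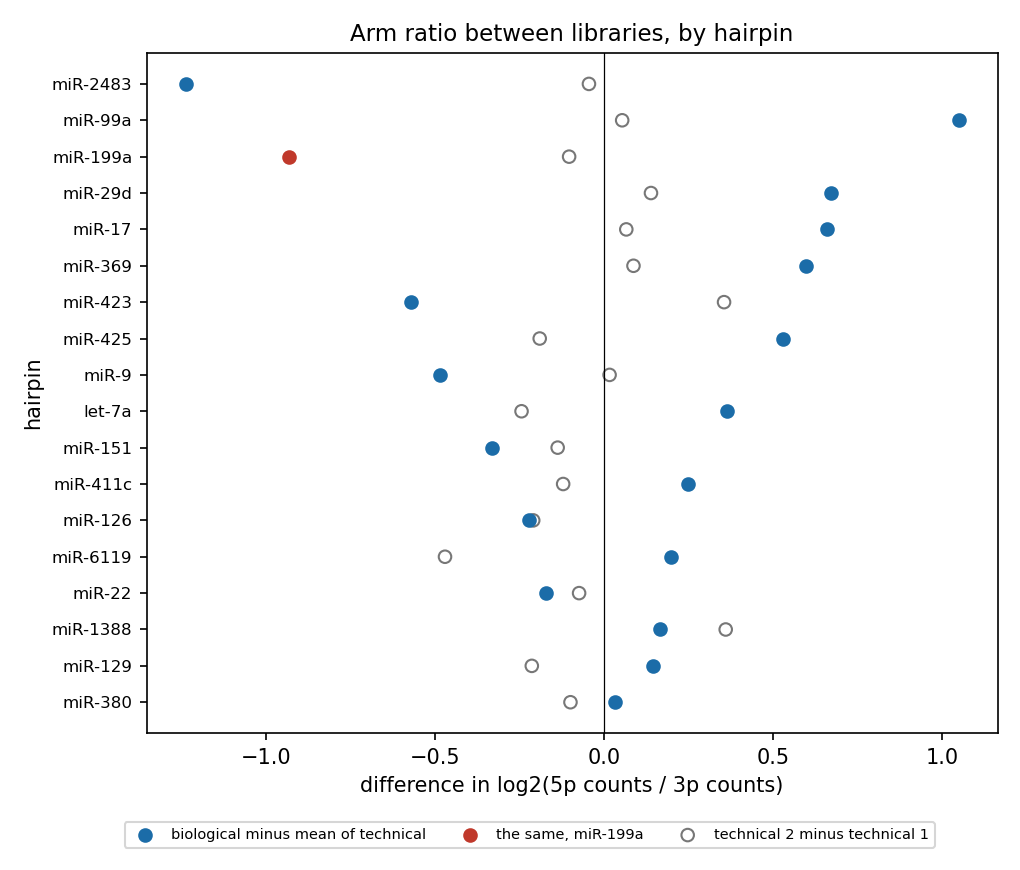
Difference in log2(5p counts / 3p counts) for the 18 hairpins with at least 100 counts per arm and library, as the biological replicate minus the mean of the technical pair (filled) and as technical replicate 2 minus technical replicate 1 (open circles). miR-199a (red) lies at -0.93, behind only miR-2483 and miR-99a, and its technical difference lies at -0.10.

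The table lists miR-199b and miR-214 on a single hairpin each, and the other names on several. The rows of miR-199a-3p on mir-199a-1, mir-199a-2 and mir-199b held 13309, 13306 and 13306 counts in the biological replicate, 16375, 16370 and 16371 counts in technical replicate 1 and 19052, 19053 and 19053 counts in technical replicate 2. The rows of miR-199a-5p on mir-199a-1 and mir-199a-2 were identical at 194 counts in the biological replicate and at 472 and 511 in technical replicates 1 and 2. Rows this close can arise when shared reads are assigned to every matching hairpin, so the share of the hairpin in DNM3, the neighbour of miR-214, could not be separated from that in DNM2. In the miR-199 3p arm, reads of 3 hairpins thus entered as a single value. The 5p share sets the 5p reads of miR-199a and miR-199b against it, whereas the log2 ratio of miR-199a leaves out miR-199b on its 5p side. The miRNA genes that RefSeq lists at the same places as these hairpins gave next to no counts. miR-3120, which overlaps MIR214, had 1 count in the biological replicate, against 2 and 4 counts in technical replicates 1 and 2. miR-3604, which overlaps MIR199A-2 and MIR199B, had a count of 0 in all 3 libraries.

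bta-miR-199c (MIMAT0011871) had 4 rows, of which 3 lay on the hairpins of miR-199a and miR-199b and matched the rows of miR-199a-3p there, but for 1 count on mir-199b in technical replicate 1 (16370 for miR-199c and 16371 for miR-199a-3p). Its row on its own hairpin, the one in NUP88, held 326 counts in the biological replicate, against 514 and 655 counts in technical replicates 1 and 2. That was 48.6 CPM in the biological library, against 92.7 and 104.8 CPM in technical replicates 1 and 2. Relative to miR-199a-3p it amounted to 2.45% in the biological replicate (exact 95% interval 2.19 to 2.73%), against 3.14% (2.88 to 3.42%) and 3.44% (3.18 to 3.71%) in technical replicates 1 and 2. The biological interval lay below both technical ones. These intervals take the reads of this row as part of the miR-199a-3p reads, which is an assumption. When each row was fitted as a feature of its own, a choice made after seeing the data, this row fell by 0.83 ± 0.15 on the log2 scale (SE; edgeR, adjusted p = 1.8e-07), between the 3p value on the other hairpins, -0.41, and the values of the 5p arms. In that fit 21.1% of 464 rows were lower. Whether its reads are also among those counted on the other hairpins is not recorded in the table.

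Other miRNAs of the vessel wall and of connective tissue moved the same way where they passed, with log2 fold changes nearer to 0 than those of the 5p arms and miR-214. The stromal list held miR-143, miR-145, miR-140, miR-152 and miR-455, in 6 mature names that were all tested. Of these, 3 were lower, none was higher and 3 did not pass, with a median log2 fold change of -0.55, where 20.2% of all 367 miRNAs were lower. miR-143, the abundant miRNA of smooth muscle, had 8206 CPM in the biological library, against 13712 and 15656 CPM in technical replicates 1 and 2, a log2 fold change of -0.66 ± 0.12 (SE; edgeR, adjusted p = 5.4e-07). miR-140, known from cartilage, fell by 0.44 ± 0.11 and miR-455-5p, also known from cartilage, by 0.71 ± 0.17 (edgeR, adjusted p = 3.2e-04 and 2.3e-04), but miR-455-5p did not pass in DESeq2 (adjusted p = 0.056). miR-152 had a log2 fold change of 0.01 and miR-455-3p one of -0.66, and neither passed (adjusted p = 0.94 and 0.058, edgeR), though miR-455-3p passed with library totals and without a count filter (adjusted p = 0.049 and 0.036, edgeR). miR-145, which is encoded beside miR-143, had only 11 counts in the biological replicate and 14 and 12 counts in technical replicates 1 and 2, and did not pass. The summed level of the list was 16444 CPM in the biological library, against 25597 and 27172 CPM in technical replicates 1 and 2.

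miRNAs linked to fibrosis were lower or did not pass. This list held miR-21, which is known to promote scarring, and the miR-29 family, which represses collagens. Of its 7 mature names, 3 were lower, none was higher and 4 did not pass, with a median log2 fold change of -0.41, beside 20.2% lower among all 367 miRNAs. With library totals 5 were lower, beside 23.4% of all. miR-29c fell by 0.71 ± 0.10 and miR-29d-3p by 0.88 ± 0.14 (SE; edgeR, adjusted p = 2.1e-10 and 1.9e-08). miR-21-5p, the most abundant of them at 35712 CPM in the biological library, against 45106 and 45116 CPM in technical replicates 1 and 2, had a log2 fold change of -0.16 ± 0.14 and did not pass (adjusted p = 0.44, edgeR). It passed with library totals, at -0.34 (adjusted p = 0.024, edgeR).

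Among markers of other cells, the endothelial and some leukocyte miRNAs were lower as well, while no other list held a lower call. Their part in the difference of the miR-199 and miR-214 group was not tested. Both arms of miR-126, the endothelial miRNA, passed and were lower, beside 20.2% lower among all 367. They are arms of a single hairpin, not separate markers. Their summed level was 1130 CPM in the biological library, against 1820 and 1888 CPM in technical replicates 1 and 2. Of the 5 leukocyte names tested, 2 were lower, beside 20.2% of all, and the call of miR-142-5p was lost in DESeq2 (adjusted p = 0.099). The list summed to 123 CPM in the biological library, against 281 and 280 CPM in technical replicates 1 and 2. Most of that gap was miR-146a, and miR-223, the defining miRNA of granulocytes, had 7 counts in the biological replicate and 7 and 6 counts in technical replicates 1 and 2. Of the chromaffin and endocrine miRNAs, miR-375 stood at 0.35 on the log2 scale (adjusted p = 0.23, edgeR) and miR-7 at -0.02 (adjusted p = 0.95, edgeR), so neither passed. miR-375 did pass, as higher, without a count filter in edgeR (adjusted p = 0.028) and in DESeq2 (adjusted p = 0.0055). The erythrocyte list had 1 higher of 2 tested, the striated muscle list 2 higher of 4 and the epithelial list 1 higher of 3, with none lower in any of them, beside 17.7% higher among all 367. The calls of miR-1 and miR-200c were lost with library totals (adjusted p = 0.16 and 0.13, edgeR) and in DESeq2 (adjusted p = 0.077 and 0.32). The erythrocyte, striated muscle and epithelial lists summed to 1097, 883 and 32.2 CPM in the biological library. They summed to 898, 676 and 28.8 CPM in technical replicate 1 and to 837, 655 and 24.2 CPM in technical replicate 2. Most of the erythrocyte sum was miR-486, its only call. It had 1080 CPM in the biological library, against 873 and 816 CPM in technical replicates 1 and 2. miR-451 lay lower, at 16.8 against 23.6 and 20.2 CPM in that order, and did not pass (adjusted p = 0.51, edgeR). miR-144 had too few counts to be tested. The muscle sum was mostly miR-499, at 731 against 547 and 521 CPM, and miR-133a and miR-133b did not pass. In the muscle list miR-208a and miR-208b, and in the epithelial list miR-205 and miR-429, were at 0 in all 3 libraries. The hepatocyte miRNA miR-122 had 1 count in the biological replicate and 6 in each technical replicate, too few to be tested.

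The miRNAs with the profiles most like those of the group were looked for among 165 others with a mean of at least 100 CPM, by Euclidean distance between log2(CPM + 1) profiles centred on their mean over the 3 libraries. With 3 libraries such a profile holds little more than the difference between preparations. Nearest to miR-199a-3p were miR-374a, miR-29b and miR-432, at distances of 0.02, 0.04 and 0.06. miR-374a had 496 CPM in the biological library, against 745 and 754 CPM in technical replicates 1 and 2. Nearest to miR-199a-5p were miR-146a, miR-146b and miR-450a, at 0.05, 0.18 and 0.18. miR-146a, known from NF-kappaB signalling, had 72.1 CPM in the biological library, against 202 and 204 CPM in technical replicates 1 and 2. Nearest to miR-199b were miR-450a, miR-132 and miR-146b, at 0.12, 0.13 and 0.16, and nearest to miR-214 were miR-450b, miR-450a and miR-132, at 0.07, 0.08 and 0.09. miR-450b, a miRNA of the X-linked cluster with miR-424, had 89.0 CPM in the biological library, against 213 CPM in each of the technical replicates.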

How the data were processed

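Total RNA was extracted from purified vesicles and small RNA libraries were made with a NEBNext kit from 500 ng, per the labels' protocols. The deposited raw counts are whole reads per mature miRNA and hairpin. The submitters' processing notes name the build UMD3.1 and edgeR. No aligner is given in the sources used here. Values in CPM by the authors equal the counts over the column total. The log2 values deposited by the authors served only as an alternative. Where a mature miRNA had several rows, the highest was used. The 367 miRNAs reaching 10 counts in any library were fitted in edgeR 4.0.16 (R 4.3.3) with TMM scaling and the quasi-likelihood test, and p-values were adjusted over all of them. The script was tested on simulated data. Members, lists and named miRNAs (the members, the tested list members and the 3 nearest profiles per member) were chosen with earlier results of these data known. The repeated libraries are labelled as technical replicates. The p-values therefore set the difference between preparations against the spread of the technical pair alone, and hold no spread between preparations. Alternatives included DESeq2 1.42.0. Gene neighbours come from RefSeq, assembly ARS-UCD2.0, and all 5 hairpins matched.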

Additional observations from a re-analysis of the deposited data

How the results depend on the processing

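All 4 miRNAs with counts of their own were lower and passed under each testable alternative in which they were fitted. With a mean of at least 100 CPM required, miR-199a-3p was the only member fitted, so 1 was called. Calls over all miRNAs, 139 of 367 tested in the reported fit, became 70 of 167 with that minimum and 86 of 367 in DESeq2. They were 110 of 367 with library totals and 136 of 526 without a filter. The deposited log2 values gave -0.56 for miR-199a-3p, since they hold no TMM factor. Leaving out a technical library, a value with no test, gave log2 fold changes from -1.42 to -1.30 for miR-199a-5p, -1.39 to -1.20 for miR-199b, -1.25 to -1.17 for miR-214 and -0.44 to -0.42 for miR-199a-3p. With a library left out, the group's share lay between 0.258% and 0.316% and the 5p share between 2.75% and 3.60%, against 2.77% over both preparations. The group's share became 0.579% with rows summed and 0.509% with identical names all counted, because reads then count more than once. The 5p share became 1.63% and 1.40% in that order, because 3p reads are then repeated more often than 5p reads. Fibrosis-linked calls became 5 of 7 tested with library totals. Chromaffin and endocrine calls became 1 of 2 tested without a filter and in DESeq2. Epithelial calls became 0 of 3 with library totals and in DESeq2. Leukocyte calls became 1 of 5 in DESeq2 and 1 of 1 at 100 CPM. Striated muscle calls became 1 of 4 with library totals and in DESeq2, and 1 of 2 at 100 CPM. At 100 CPM the filter itself removed members of the leukocyte and muscle lists. The muscle call that was lost, miR-1, was still fitted there and did not pass (adjusted p = 0.12, edgeR). No test was possible with a technical library left out, since no residual degree of freedom remains. No paired analysis was possible because the groups share only 1 replicate number. Depth limits the ratios of miR-199b and miR-214, which rest on 69 and 124 counts in the biological replicate.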
